A study of Homo sapiens with 14 samples.

Results

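The androgen-induced genes described here are 35 genes outside the kallikrein family that are known from earlier work to rise in prostate cells given androgen. They were chosen by name, with earlier results of these data known. Every array probe whose annotated symbol, or an older alias of it, belonged to one of them was taken. Of the 35, 32 had a named probe, and all 48 of their probes were detected on enough arrays to be tested. They make up 32 of the 11983 genes tested. STEAP4, SORD and ZBTB10 had no named probe in the annotation used and were not analysed here, which does not show that they were not expressed. A gene is represented by its brightest probe, and other probes are cited where they gave a different call, or the same call with a change over 1.5 times larger or smaller.

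The arrays came from 2 human prostate cancer cell lines, LNCaP-abl and LNCaP, and the study asked what dilazep does in relation to GATA2, a transcription factor of prostate cells. LNCaP-abl is a subline of LNCaP that was adapted to growth without androgen, and it was kept in medium free of phenol red with 10% charcoal-stripped serum, from which steroid hormones have largely been removed. LNCaP, which carries an androgen receptor and responds to androgen, was kept in 10% fetal bovine serum. In both lines, 3 arrays held RNA of cells after 48 h in 50 µM dilazep, an inhibitor of adenosine transport used to widen blood vessels, and 2 arrays each that of cells after H2O or DMSO. The H2O and DMSO means were weighted equally as the control of each line. Line and serum changed together, so their effects cannot be told apart, and no group received added androgen. For the control arrays the treatment label names bufalin and not dilazep, so a difference between experiments cannot be told apart from an effect of dilazep. The labels do not state that replicates were separate cultures, so p-values measure the spread between these arrays only.

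The androgen receptor is a transcription factor that androgens switch on. Bound to DNA elements, many of them in enhancers far from the genes they serve, it raises transcription of a broad set of genes in luminal prostate cells, whose products include surface proteases, channels, lipid enzymes and chaperones that act on the receptor itself. The elements resemble those of the glucocorticoid receptor, and FKBP5, TSC22D3 and SGK1 are textbook targets of both receptors.

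RefSeq promoter windows (GRCh38.p14), running from 250 bases before to 50 bases after the start of the gene, were found for 25 of the 35 genes. None of the 25 held the full palindromic element, AGAACA followed by 3 bases of any kind and TGTTCT, which was found in 1 of 27305 windows of all genes (0.00366%). A half-site, AGAACA or its reverse complement TGTTCT on either strand, was found in 3 of the 25 windows (12%), against 4056 of the 27305 (14.9%). The 3 were those of STK39, 112 bases before the start, FKBP5, at the start, and PMEPA1, 22 bases after it. STK39 and FKBP5 are shown because both genes were lower with dilazep in both lines. Capitals mark the half-site, and the runs read 5′ to 3′ along the minus strand, at chr2:168247596-168247845 for STK39 and chr6:35728578-35728833 for FKBP5.
STK39: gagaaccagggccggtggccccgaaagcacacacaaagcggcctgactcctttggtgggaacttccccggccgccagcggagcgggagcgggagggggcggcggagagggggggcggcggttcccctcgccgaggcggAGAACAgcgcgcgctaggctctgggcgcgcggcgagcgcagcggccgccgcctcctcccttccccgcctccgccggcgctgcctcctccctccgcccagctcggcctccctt
FKBP5: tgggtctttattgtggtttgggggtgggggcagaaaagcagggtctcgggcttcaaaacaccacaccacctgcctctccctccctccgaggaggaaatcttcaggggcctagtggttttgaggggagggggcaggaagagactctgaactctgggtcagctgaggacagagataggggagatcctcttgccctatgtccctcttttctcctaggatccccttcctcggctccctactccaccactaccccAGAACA
A match of these letters is a description of the window and not a binding site.

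An array detected 17925 to 19856 probes (37.9% to 42.0%), and median signals lay between 144.6 and 154.6. Most probes were not above background, so the median signal does not compare the arrays in brightness. LNCaP-abl dilazep replicate 1 had the lowest value of both. Of 8 luminal prostate epithelial markers, 6 were measured, and their summed signals lay between 16880 and 20820 over all arrays, while none of 4 basal markers was measured. A marker not measured had no named probe that was kept, which does not show that it was absent. Of the 6, 5 were lower (KRT8 the most, at -0.78 on the log2 scale) and CDH1 was higher (0.91) in LNCaP-abl than in LNCaP controls. Among all genes, 23.9% were lower and 25.1% higher in that comparison. With dilazep, 3 rose and 1 fell in LNCaP-abl, and 1 rose and 2 fell in LNCaP. The shares of all genes were 27.2% up and 23.3% down in LNCaP-abl, and 24.2% up and 19.7% down in LNCaP. Of 6 neuroendocrine markers 2 were measured, at a summed signal of 93.81 to 119.5 with dilazep and 67.97 to 79.57 in controls of LNCaP-abl, where INSM1 was called higher (0.49, adjusted p = 0.0185), and neither was called in LNCaP. These signals lay near background. In LNCaP-abl, 2 of the genes were detected on a dilazep array, 1 on an H2O array and 0 on a DMSO array. Among 5 immune markers only CD68 was measured, and among 4 endothelial markers only VWF. CD68 was higher with dilazep in LNCaP-abl (log2 change 0.54, adjusted p = 0.0273) and in LNCaP (1.01, adjusted p = 0.000886). Its signal, the sum of that list, was 958.9 to 1065 with dilazep and 514.4 to 838.3 in controls of LNCaP-abl, and 774.8 to 1286 with dilazep and 477 to 509.5 in controls of LNCaP. VWF was lower with dilazep in LNCaP-abl (24.08 to 39.85, against 51.87 to 61.43 in controls) and in LNCaP (89.12 to 111.6, against 322.3 to 397 in controls). Its signals with dilazep in LNCaP-abl lay near background. The part of the luminal and neuroendocrine markers, CD68 and VWF in the results was not tested. In bulk RNA, fewer cells that express a gene and less of its RNA per cell cannot be told apart.

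**Figure D1:**
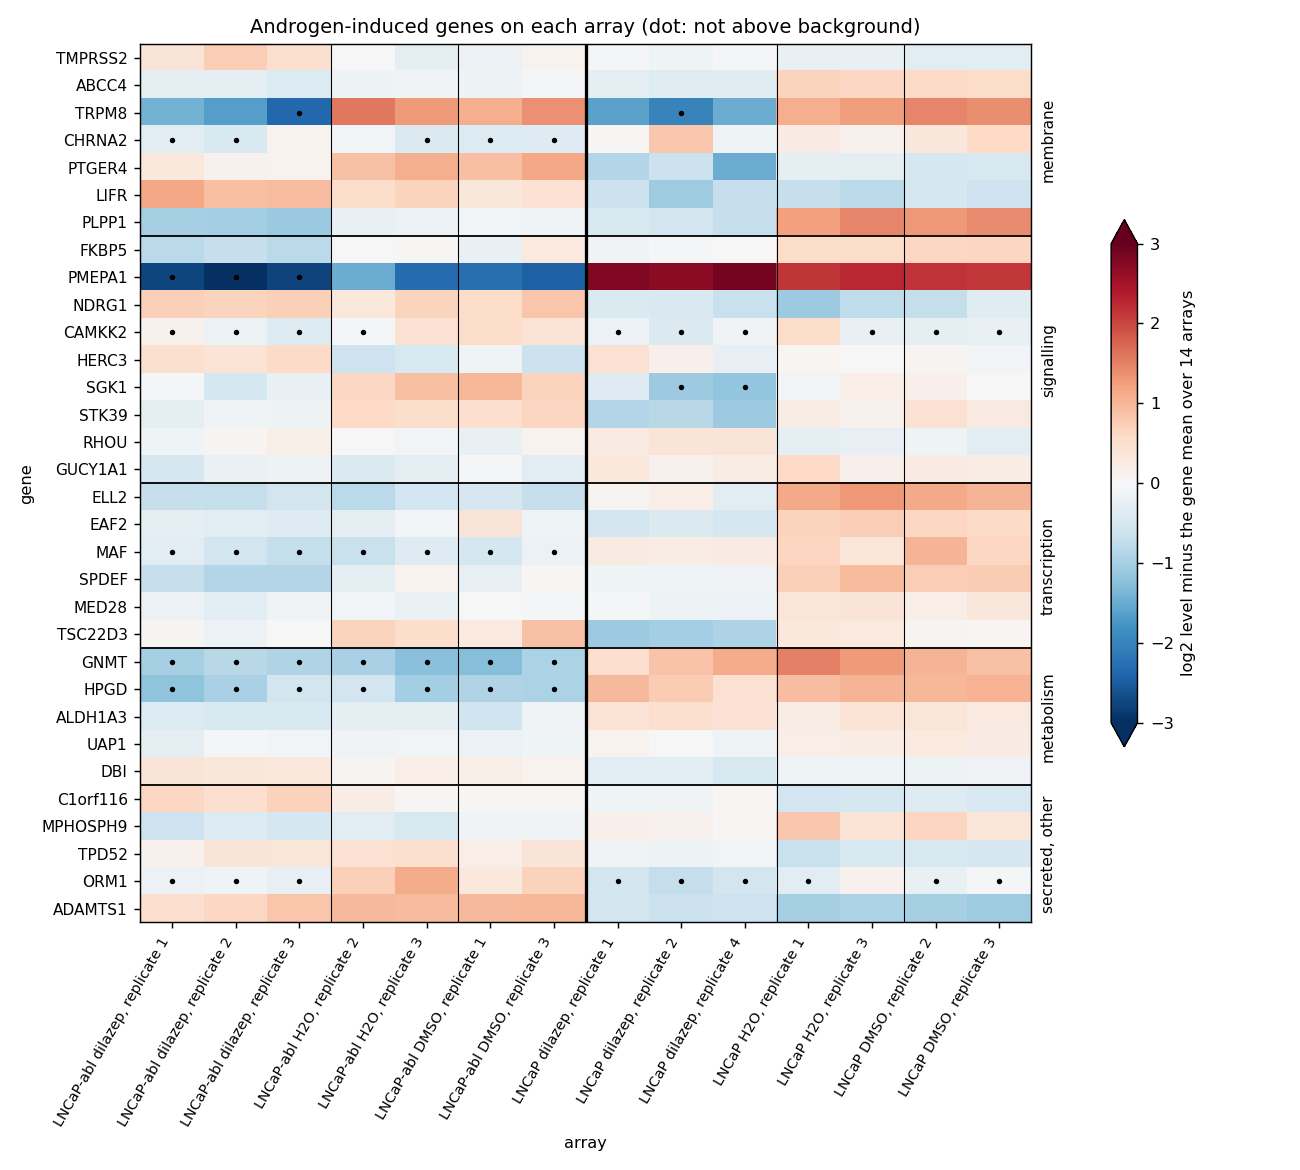
Log2 level of 32 androgen-induced genes (rows, grouped by role) on 14 arrays (columns), as the difference from each gene's own mean. Black dots mark values not above background. TRPM8 was low on every dilazep array of both lines, and PMEPA1 was low on every LNCaP-abl array.

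With dilazep, more of these genes fell than rose in both lines. Levels are background-corrected and quantile-normalised signal intensities on the log2 scale, and a change is a difference of group means on that scale with its standard error (SE), where each line gave 3 dilazep and 4 control arrays. A gene was called where the Benjamini-Hochberg adjusted p of the limma fit over all 11983 genes was under 0.05, and every adjusted p below comes from that fit. In LNCaP-abl, 14 of the 32 fell (43.8%), against 23.3% of all genes tested, and 5 rose (15.6%), against 27.2% of all genes. The median change in LNCaP-abl was -0.13 for the 32 and 0.04 for all genes. In LNCaP, 17 fell (53.1%), against 19.7% of all genes, and 5 rose (15.6%), against 24.2%. The median change in LNCaP was -0.30 for the 32 (-0.26 with genes not above background set to their bound) and 0.04 for all genes. As the genes were chosen with earlier results of these data known, the shares and medians are set beside those of all genes as a description only.

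Of the genes that fell, 11 did so in both lines, namely TRPM8, PLPP1, TSC22D3, STK39, EAF2, ABCC4, SGK1, SPDEF, FKBP5, PTGER4 and ORM1. They are 78.6% of the 14 that fell in LNCaP-abl and 64.7% of the 17 that fell in LNCaP. Among all genes, 1318 fell in both lines, which is 47.3% of those that fell in LNCaP-abl and 55.8% of those that fell in LNCaP. C1orf116 was the single member that rose in both lines, though another of its probes was called lower in LNCaP. It is 20% of the 5 that rose in each line. Among all genes, 1621 rose in both lines, which is 49.7% of those that rose in LNCaP-abl and 55.9% of those that rose in LNCaP. Called in neither line were 6 members (ALDH1A3, CHRNA2, GNMT, GUCY1A1, HPGD and NDRG1). ADAMTS1, DBI and PMEPA1 were called in opposite directions in the lines. The shares of all genes called in neither line or in opposite directions were not computed.

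DMSO and H2O were compared as a mean over the lines, with 2 arrays per vehicle in each line. Opposite shifts in the lines would cancel in this mean, and the vehicles were not compared within a line. A lack of calls therefore does not show that the vehicles were alike. No gene was called by limma between DMSO and H2O, averaged over the lines (0% of all genes higher and 0% lower), although 532 genes had an unadjusted p under 0.05. NDRG1, which many stresses induce, was the single member among those, at 0.30 (SE 0.12, adjusted p = 1). Refits with other normalizations, filters and eBayes settings called no member between the vehicles either.

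**Figure D2:**
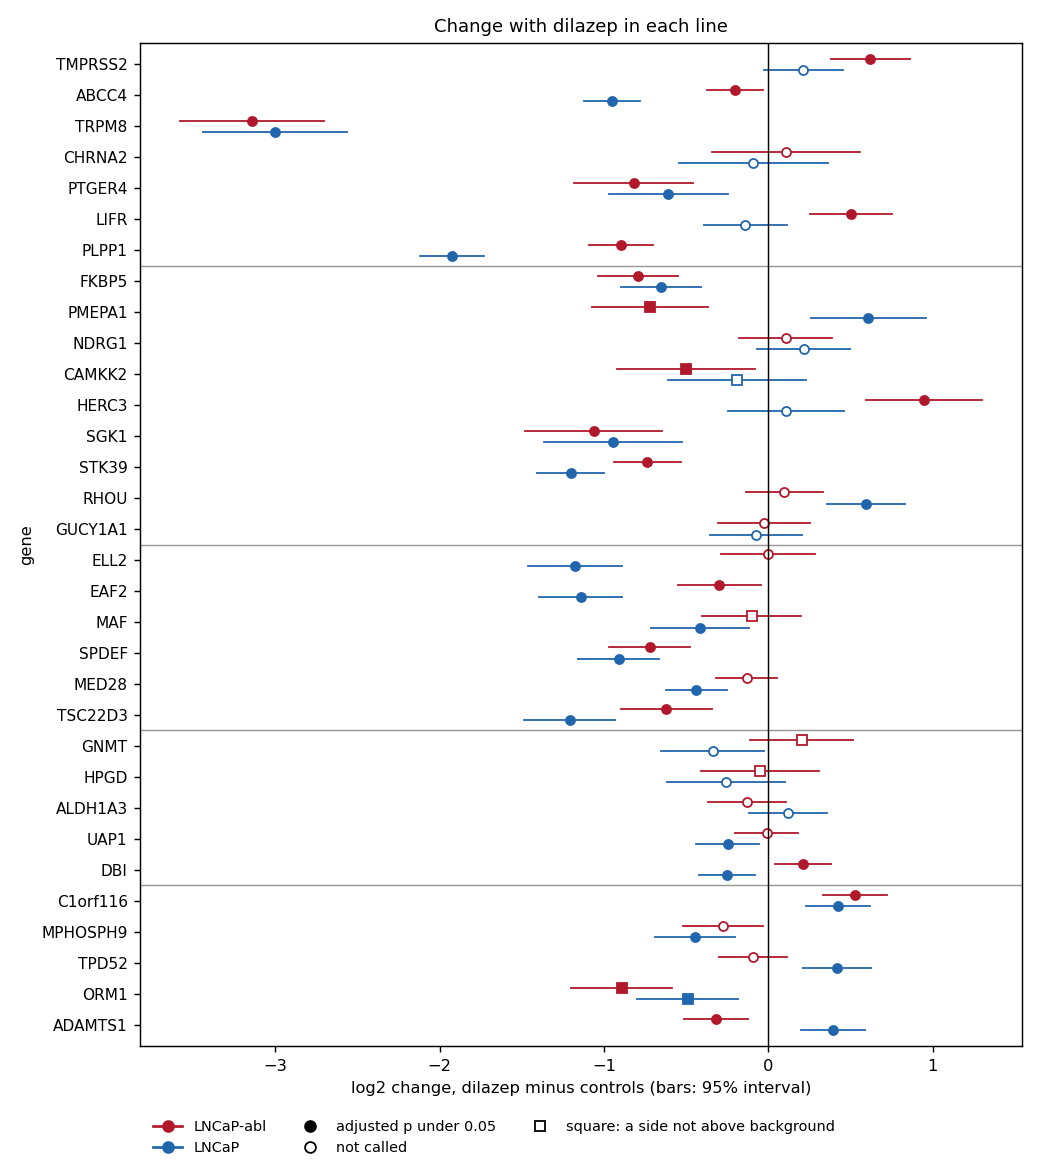
Log2 change with dilazep (dilazep minus controls, horizontal axis) of 32 androgen-induced genes in LNCaP-abl (red) and LNCaP (blue), with 95% intervals. Filled symbols passed an adjusted p of 0.05, and squares mark genes with a group not above background. TRPM8 lies near -3 in both lines, and ELL2, ABCC4 and PLPP1 changed less in LNCaP-abl.

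Among the 7 measured genes of membrane proteins, 4 fell in each line, TRPM8, PLPP1, PTGER4 and ABCC4. In LNCaP-abl, TMPRSS2 and LIFR rose, and in LNCaP none of the 7 rose. The median change of the 7 was -0.20 in LNCaP-abl and -0.61 in LNCaP. Of all genes tested, 23.3% fell and 27.2% rose in LNCaP-abl, and 19.7% fell and 24.2% rose in LNCaP.

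TRPM8 encodes a cation channel that opens on cooling and menthol, and it had the largest change of the 32 genes in each line. In LNCaP-abl its log2 level was 5.84, 5.61 and 4.92 on the dilazep arrays, against 8.84 and 8.55 with H2O and 8.36 and 8.64 with DMSO. In LNCaP it was 5.65, 5.26 and 5.78 with dilazep, against 8.35 and 8.52 with H2O and 8.74 and 8.65 with DMSO. Every dilazep array lay more than 2 log2 units below every control array, and 1 dilazep array in each line (LNCaP-abl replicate 3 and LNCaP replicate 2) was not above background. The change was -3.14 in LNCaP-abl (SE 0.20, adjusted p = 9.79e-08) and -3.00 in LNCaP (SE 0.20, adjusted p = 6.43e-07). The responses differed by -0.14, with a 95% interval of -0.76 to 0.48. The dilazep means, 5.46 in LNCaP-abl and 5.56 in LNCaP, lay near the lowest detected levels of the dilazep arrays (5.30 to 5.40). Both falls may therefore be larger than measured, and the small difference does not show that they were equal. A second probe of TRPM8, detected on 8 of the 14 arrays, gave -1.86 and -1.74.

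PLPP1 encodes a surface phosphatase that removes phosphate from lysophosphatidic acid and related lipids. Its log2 level was 9.55, 9.51 and 9.43 with dilazep in LNCaP-abl, against 10.32 and 10.37 with H2O and 10.46 and 10.42 with DMSO. Among LNCaP arrays it was 10.08, 9.98 and 9.83 with dilazep, against 11.78 and 12.00 with H2O and 11.84 and 11.94 with DMSO. No dilazep array reached a control array of its line, and the fall was larger in LNCaP (-1.93, SE 0.09, adjusted p = 5.96e-08) than in LNCaP-abl (-0.90, SE 0.09, adjusted p = 4.86e-06). The difference of the responses was 1.03 (SE 0.13, adjusted p = 0.000106), but it was 0.25 (adjusted p = 0.306) at one other probe and 1.89 at another.

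PTGER4 encodes a receptor of prostaglandin E2. It had 7.44, 7.24 and 7.22 with dilazep in LNCaP-abl, against 7.99 and 8.20 with H2O and 8.02 and 8.27 with DMSO, and 6.24, 6.47 and 5.63 with dilazep in LNCaP, against 6.83 and 6.81 with H2O and 6.61 and 6.64 with DMSO. The dilazep arrays lay below the controls in both lines, and PTGER4 fell by 0.82 in LNCaP-abl (SE 0.17, adjusted p = 0.00132) and by 0.61 in LNCaP (SE 0.17, adjusted p = 0.0105). In LNCaP the size rested partly on replicate 4, without which the change was -0.37. ABCC4, an exporter of cyclic nucleotides and drugs, had 11.09, 11.10 and 10.95 with dilazep in LNCaP-abl, against 11.20 and 11.25 with H2O and 11.21 and 11.33 with DMSO. In LNCaP its levels were 11.07, 10.99 and 10.99 with dilazep, against 12.02 and 11.98 with H2O and 11.94 and 11.91 with DMSO. The dilazep arrays lay below the controls in both lines, and the fall was 0.20 in LNCaP-abl (SE 0.08, adjusted p = 0.0475) and 0.95 in LNCaP (SE 0.08, adjusted p = 3.08e-06). The call of ABCC4 in LNCaP-abl was lost without any one of 13 of the 14 arrays (adjusted p between 0.0545 and 0.181).

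TMPRSS2, a membrane serine protease whose promoter is joined to ERG in many prostate cancers, went the other way. In LNCaP-abl its level was 12.71, 13.08 and 12.82 with dilazep, against 12.33 and 12.06 with H2O and 12.16 and 12.44 with DMSO. The LNCaP levels were 12.31, 12.21 and 12.29 with dilazep, against 12.12 and 12.12 with H2O and 12.00 and 12.00 with DMSO. All dilazep arrays lay above all controls of their line, and TMPRSS2 rose by 0.62 in LNCaP-abl (SE 0.11, adjusted p = 0.000506), while the change of 0.21 in LNCaP was not called (95% interval -0.03 to 0.45, adjusted p = 0.142). The difference between the responses was 0.41 (adjusted p = 0.0617) and was not called. LIFR, the receptor of leukaemia inhibitory factor, had 9.70, 9.43 and 9.47 with dilazep in LNCaP-abl, against 9.08 and 9.21 with H2O and 8.87 and 8.96 with DMSO. Its LNCaP levels were 7.90, 7.48 and 7.84 with dilazep, against 7.85 and 7.74 with H2O and 8.02 and 7.92 with DMSO. The groups were apart in LNCaP-abl and overlapped in LNCaP, and LIFR rose by 0.50 in LNCaP-abl (SE 0.11, adjusted p = 0.00287) and changed by -0.14 in LNCaP (adjusted p = 0.36). CHRNA2, a nicotinic acetylcholine receptor subunit detected on 2 of 7 LNCaP-abl arrays, was called in neither line.

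All 6 measured genes of transcription proteins fell in LNCaP (ELL2, EAF2, TSC22D3, SPDEF, MED28 and MAF), with a median change of -1.03. In LNCaP-abl 3 of them fell (TSC22D3, SPDEF and EAF2) and none rose, with a median of -0.21. The shares of all genes were 19.7% down and 24.2% up in LNCaP, and 23.3% down and 27.2% up in LNCaP-abl. ELL2 encodes an elongation factor of RNA polymerase II, and EAF2 a partner that binds ELL proteins. In LNCaP-abl the level of ELL2 was 7.43, 7.42 and 7.57 with dilazep, against 7.31 and 7.55 with H2O and 7.62 and 7.43 with DMSO. In LNCaP it was 8.20, 8.33 and 7.77 with dilazep, against 9.26 and 9.44 with H2O and 9.27 and 9.15 with DMSO. The LNCaP-abl groups overlapped, at a level below every LNCaP array, whereas the LNCaP groups did not overlap. ELL2 changed by 0.00 in LNCaP-abl (95% interval -0.29 to 0.28, adjusted p = 0.992) and fell by 1.18 in LNCaP (SE 0.13, adjusted p = 3.13e-05). For EAF2 the LNCaP-abl levels were 7.05, 7.01 and 6.93 with dilazep, against 7.05 and 7.23 with H2O and 7.71 and 7.18 with DMSO. Its LNCaP levels were 6.77, 6.89 and 6.79 with dilazep, against 7.98 and 8.05 with H2O and 7.93 and 7.89 with DMSO. The LNCaP-abl groups met at 7.05, and the LNCaP groups lay about 1 log2 unit apart. EAF2 fell by 0.30 in LNCaP-abl (SE 0.12, adjusted p = 0.0486) and by 1.14 in LNCaP (SE 0.12, adjusted p = 1.54e-05). Leaving out any one of 12 arrays ended the LNCaP-abl call of EAF2 (adjusted p between 0.0572 and 0.158), and without DMSO replicate 1 its change was -0.17.

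SPDEF, an ETS factor of luminal epithelium, fell in both lines. Its level was 10.01, 9.82 and 9.83 with dilazep in LNCaP-abl, against 10.44 and 10.81 with H2O and 10.45 and 10.76 with DMSO. Among LNCaP arrays it was 10.58, 10.57 and 10.59 with dilazep, against 11.42 and 11.64 with H2O and 11.44 and 11.47 with DMSO. The groups did not overlap in either line, and the change was -0.72 in LNCaP-abl (SE 0.11, adjusted p = 0.000203) and -0.91 in LNCaP (SE 0.11, adjusted p = 6.79e-05). The difference of the responses was 0.19, with a 95% interval of -0.16 to 0.54. MED28, a subunit of the Mediator complex, fell by 0.44 in LNCaP (adjusted p = 0.00133) and changed by -0.13 in LNCaP-abl (adjusted p = 0.22). MAF, a basic leucine zipper factor, was not above background on any LNCaP-abl array and fell by 0.42 in LNCaP (adjusted p = 0.0283), a call that was lost without any one of 5 arrays (adjusted p between 0.0587 and 0.101).

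FKBP5, TSC22D3 and SGK1, listed here as targets of the glucocorticoid receptor too, all fell in both lines. Of all genes, 23.3% fell in LNCaP-abl and 19.7% in LNCaP, and 1318 fell in both. The 3 were picked by name and the other members were not sorted by response to glucocorticoids, so this count is a description only. FKBP5 encodes a co-chaperone of steroid receptors. Its level was 9.29, 9.41 and 9.28 with dilazep in LNCaP-abl, against 10.09 and 10.13 with H2O and 9.87 and 10.39 with DMSO. The LNCaP levels were 9.98, 10.04 and 10.08 with dilazep, against 10.64 and 10.65 with H2O and 10.71 and 10.74 with DMSO. No dilazep array overlapped the controls of its line. FKBP5 fell by 0.79 in LNCaP-abl (SE 0.11, adjusted p = 8.35e-05) and by 0.65 in LNCaP (SE 0.11, adjusted p = 0.000586), and the difference of -0.14 had a 95% interval of -0.48 to 0.21.

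TSC22D3 encodes GILZ, a glucocorticoid-induced leucine zipper protein. In LNCaP-abl its level was 10.50, 10.24 and 10.40 with dilazep, against 11.07 and 10.93 with H2O and 10.71 and 11.30 with DMSO. In LNCaP it was 9.31, 9.40 and 9.48 with dilazep, against 10.73 and 10.71 with H2O and 10.50 and 10.47 with DMSO. The groups did not overlap, and the fall was 0.62 in LNCaP-abl (SE 0.13, adjusted p = 0.0014) and 1.21 in LNCaP (SE 0.13, adjusted p = 1.98e-05), but a second probe gave -0.16 in LNCaP-abl (adjusted p = 0.226). SGK1, a kinase that regulates ion transport, had 5.92, 5.46 and 5.76 with dilazep in LNCaP-abl, against 6.61 and 6.88 with H2O and 6.97 and 6.65 with DMSO. In LNCaP its levels were 5.60, 4.90 and 4.79 with dilazep, against 5.90 and 6.18 with H2O and 6.14 and 5.96 with DMSO. Dilazep arrays were the lower ones in both lines, without overlap, and SGK1 fell by 1.06 in LNCaP-abl (SE 0.19, adjusted p = 0.000571) and by 0.95 in LNCaP (SE 0.19, adjusted p = 0.00184), where 2 of 3 dilazep arrays were not above background. Another SGK1 probe, detected on 13 arrays, changed by -0.09 in LNCaP (adjusted p = 0.681).

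Among the 9 genes of signalling, chaperone and trafficking proteins, 5 fell and 1 rose in LNCaP-abl, and 3 fell and 2 rose in LNCaP. Over all genes, 23.3% fell and 27.2% rose in LNCaP-abl, and 19.7% fell and 24.2% rose in LNCaP. FKBP5, SGK1 and STK39 fell in both lines. STK39 encodes the kinase SPAK, which controls chloride cotransporters. Its level was 12.37, 12.53 and 12.47 with dilazep in LNCaP-abl, against 13.21 and 13.15 with H2O and 13.13 and 13.28 with DMSO. Among LNCaP arrays it was 11.75, 11.79 and 11.54 with dilazep, against 12.84 and 12.76 with H2O and 13.08 and 12.90 with DMSO. Every dilazep array was below every control of its line, and STK39 fell by 0.74 in LNCaP-abl (SE 0.09, adjusted p = 3.67e-05) and by 1.20 in LNCaP (SE 0.09, adjusted p = 2.11e-06).

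PMEPA1, a membrane protein that recruits NEDD4-type ubiquitin ligases, was called in opposite directions. In LNCaP-abl its level was 5.30, 5.04 and 5.29 with dilazep, none of them above background, against 6.57 and 5.74 with H2O and 5.80 and 5.60 with DMSO. The LNCaP levels were 10.84, 10.76 and 10.92 with dilazep, against 10.21 and 10.32 with H2O and 10.22 and 10.18 with DMSO. The LNCaP-abl dilazep arrays lay below their controls and the LNCaP dilazep arrays above theirs. PMEPA1 was at least 1.49-fold lower with dilazep in LNCaP-abl (adjusted p = 0.00258) and rose by 0.61 in LNCaP (SE 0.16, adjusted p = 0.00911). Both its other probes, detected on 9 and 3 arrays, were not called in LNCaP-abl, and in LNCaP they gave 0.17 (adjusted p = 0.379) and -0.37 (adjusted p = 0.0496). Against the DMSO controls alone the LNCaP-abl call was lost (adjusted p = 0.0573).

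HERC3, a HECT ubiquitin ligase, rose with dilazep in LNCaP-abl. Its level was 8.76, 8.70 and 8.85 with dilazep in LNCaP-abl, against 7.66 and 7.80 with H2O and 8.18 and 7.64 with DMSO. In LNCaP it was 8.75, 8.44 and 8.04 with dilazep, against 8.34 and 8.30 with H2O and 8.36 and 8.20 with DMSO. The groups were apart in LNCaP-abl and overlapped in LNCaP, where the dilazep arrays were spread on both sides of the controls. The change was 0.95 in LNCaP-abl (SE 0.16, adjusted p = 0.000385) and 0.11 in LNCaP (SE 0.16, adjusted p = 0.633). RHOU, a small GTPase, rose by 0.60 in LNCaP (SE 0.11, adjusted p = 0.000912) and changed by 0.10 in LNCaP-abl (adjusted p = 0.487). CAMKK2, a kinase upstream of AMPK, was above background on 3 of 4 LNCaP-abl control arrays and on no dilazep array, and was at least 1.12-fold lower with dilazep there (adjusted p = 0.0478), a call lost without any one of 10 arrays (adjusted p between 0.0524 and 0.186). NDRG1 and the guanylate cyclase subunit gene GUCY1A1 were called in neither line.

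**Figure D3:**
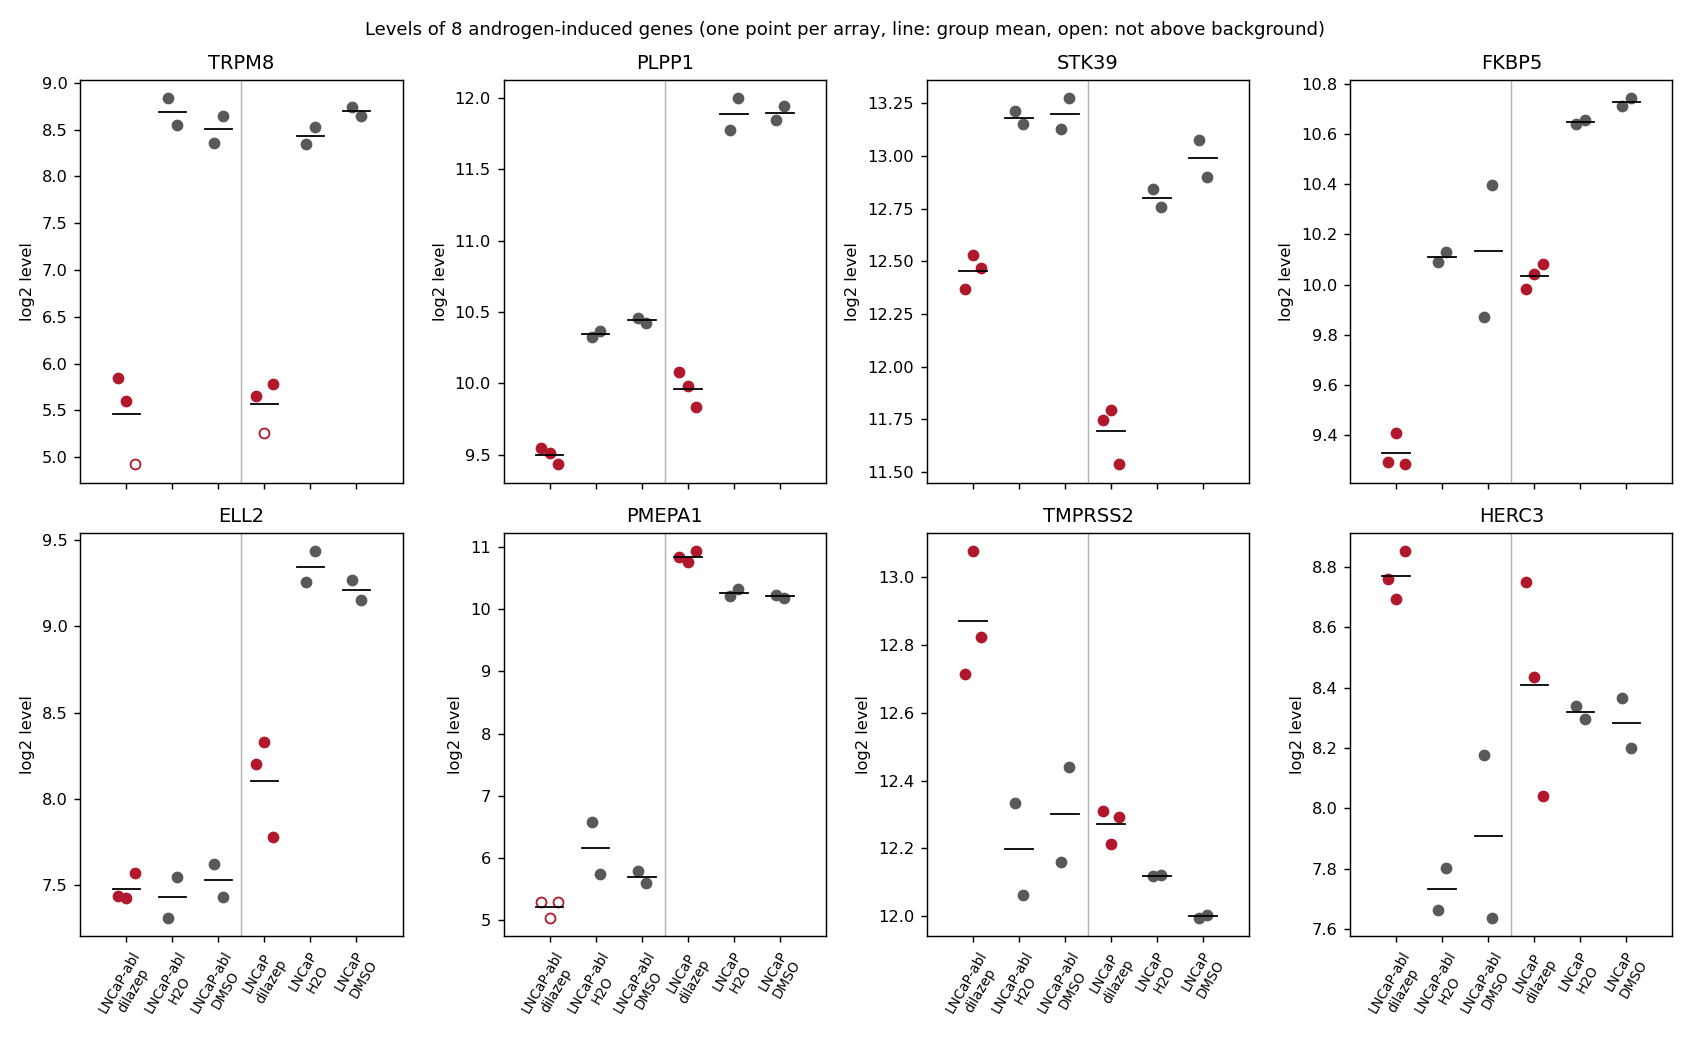
Log2 levels of 8 androgen-induced genes on each array (one point per array) in 6 groups, with the group mean as a line. Open points were not above background. TRPM8, PLPP1, STK39 and FKBP5 were low on every dilazep array of both lines, ELL2 was low on those of LNCaP against its LNCaP controls, and TMPRSS2 and HERC3 were high on those of LNCaP-abl.

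Of the 5 measured metabolic genes, 1 rose and none fell with dilazep in LNCaP-abl, and 2 fell and none rose in LNCaP. Of all genes, 27.2% rose and 23.3% fell in LNCaP-abl, and 24.2% rose and 19.7% fell in LNCaP. Beside these shares, counts over 5 genes say nothing particular about the group. DBI, the acyl-CoA binding protein, had 14.23, 14.18 and 14.16 with dilazep in LNCaP-abl, against 13.93 and 14.04 with H2O and 14.02 and 13.94 with DMSO. In LNCaP it had 13.50, 13.52 and 13.35 with dilazep, against 13.70 and 13.72 with H2O and 13.69 and 13.74 with DMSO. Its dilazep arrays lay above the controls in LNCaP-abl and below them in LNCaP, with changes of 0.21 in LNCaP-abl (adjusted p = 0.0413, lost without any one of 11 arrays at 0.0504 to 0.121) and -0.25 in LNCaP (adjusted p = 0.0203). In LNCaP the call of DBI was lost without DMSO replicate 3 (adjusted p = 0.0542) or dilazep replicate 4 (adjusted p = 0.0873). UAP1, which makes UDP-N-acetylglucosamine, fell by 0.25 in LNCaP (adjusted p = 0.0377), and the call was lost without any one of 6 arrays (adjusted p between 0.0665 and 0.142). GNMT, a glycine methyltransferase, and HPGD, which inactivates prostaglandins, were not above background on any LNCaP-abl array and were not called in LNCaP. ALDH1A3, which makes retinoic acid, changed by 0.12 in LNCaP (adjusted p = 0.407), but its second probe fell by 0.84 there (adjusted p = 0.00018).

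The remaining 5 genes encode secreted or other proteins, and in LNCaP-abl 1 rose and 2 fell, while in LNCaP 3 rose and 2 fell. The shares of all genes were 27.2% up and 23.3% down in LNCaP-abl, and 24.2% up and 19.7% down in LNCaP. ADAMTS1, a secreted metalloprotease, had levels of 10.98, 11.09 and 11.30 with dilazep in LNCaP-abl, against 11.44 and 11.41 with H2O and 11.44 and 11.48 with DMSO. In LNCaP its levels were 9.92, 9.82 and 9.85 with dilazep, against 9.48 and 9.52 with H2O and 9.48 and 9.40 with DMSO. The dilazep arrays lay below the controls in LNCaP-abl and above them in LNCaP, with a fall of 0.32 (SE 0.09, adjusted p = 0.0097) and a rise of 0.40 (SE 0.09, adjusted p = 0.00346), and the fall was not called without LNCaP-abl dilazep replicate 1 (adjusted p = 0.0537). TPD52, a protein of vesicle traffic, rose by 0.42 in LNCaP (SE 0.10, adjusted p = 0.00382), though its second probe changed by 0.17 (adjusted p = 0.187). MPHOSPH9, an M-phase phosphoprotein, fell by 0.44 in LNCaP (SE 0.11, adjusted p = 0.00677) and changed by -0.28 in LNCaP-abl (adjusted p = 0.0578).

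C1orf116, known as a specifically androgen-regulated gene, rose by 0.53 in LNCaP-abl (SE 0.09, adjusted p = 0.000343) and by 0.43 in LNCaP (SE 0.09, adjusted p = 0.00225). Its 3 probes disagreed in LNCaP, where the others gave -0.56 (adjusted p = 0.00858) and 0.23 (adjusted p = 0.0449), and in LNCaP-abl both others gave 1.17. ORM1, an acute-phase plasma protein, was above background on all 4 LNCaP-abl control arrays and on no dilazep array, and was at least 1.47-fold lower with dilazep there (adjusted p = 0.000215). In LNCaP the gene was above background on 1 of 7 arrays, so its call there (adjusted p = 0.0144) carries no fold, and it was lost without H2O replicate 3 (adjusted p = 0.0528) or dilazep replicate 2 (adjusted p = 0.0596).

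The responses to dilazep were then compared directly, as the change in LNCaP-abl minus the change in LNCaP. Of the 32 genes, 9 had a higher value in LNCaP-abl (28.1%), against 15.9% of all genes, and 4 a lower one (12.5%), against 17.9% of all genes, with a median of 0.19 (all genes -0.02). This comparison depended on the scaling of the arrays. With median scaling in place of quantile normalization, 4 were higher and 4 lower, with a median of -0.04 for the 32 and -0.22 for all genes. Among all genes, the share of higher calls was then 22.7% in place of 47.0% for this comparison, 37.8% in place of 53.9% for dilazep in LNCaP-abl and 62.8% in place of 55.1% for dilazep in LNCaP. The median of all genes with dilazep in LNCaP-abl was -0.08 with median scaling, so that falls there read larger and rises smaller under it.

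PLPP1 (1.03), EAF2 (0.84) and ABCC4 (0.75, SE 0.11, adjusted p = 0.000384) fell less in LNCaP-abl than in LNCaP, ELL2 (1.18, SE 0.18, adjusted p = 0.000632) was called lower in LNCaP alone, and ADAMTS1 (-0.71, SE 0.12, adjusted p = 0.00123) parted the lines in sign. These 5 calls held under all 24 alternatives run. PMEPA1 had a fitted difference of -1.33 (adjusted p = 0.00108), which was -1.19 with its LNCaP-abl dilazep level, not above background, set to the bound, and neither of its other probes was called (0.37, adjusted p = 0.173, and -0.15, adjusted p = 0.615). HERC3 (0.84), LIFR (0.64), STK39 (0.46), TSC22D3 (0.59) and DBI (0.46) were also higher, and TPD52 (-0.51) and RHOU (-0.50) lower. The call of TPD52 was lost with its probes averaged (-0.21, adjusted p = 0.201) and with DMSO controls alone (adjusted p = 0.105), and its second probe, detected on all 14 arrays, gave 0.09 (adjusted p = 0.649). RHOU was not called without any one of 7 arrays (adjusted p between 0.0504 and 0.0688), and TSC22D3 without any one of 4 (0.0514 to 0.063). With median scaling HERC3, LIFR, STK39, TSC22D3 and DBI were not called (adjusted p between 0.0638 and 0.316). Of the 11 genes that fell in both lines, 6 (TRPM8, SGK1, SPDEF, FKBP5, PTGER4 and ORM1) had no called difference. Only 15.9% of all genes were called higher and 17.9% lower in this comparison, so a lack of a call does not set the 6 apart. The share among all genes that fell in both lines was not computed. The differences lay between -0.21 and 0.19 for 5 of these 6, and ORM1, not above background with dilazep in either line, has no measured one. Those of TRPM8 and SGK1 rest on dilazep levels near background, so their small size does not show equal falls. For SGK1, however, both other probes were called lower (-0.72, adjusted p = 0.0155, and -0.85, adjusted p = 0.0119, detected on 11 and 13 arrays).

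The lines, which also differed in serum, were compared next, and 28 of the 32 genes were called between their controls. In control cells, 17 of the 32 were lower in LNCaP-abl than in LNCaP (53.1%), against 23.9% of all genes, and 11 were higher (34.4%), against 25.1% of all genes. Their median difference was -0.38, against 0.00 for all genes, over 4 arrays per line. Among the 6 luminal markers, 5 were lower as well and 1 was higher. TRPM8 (0.03, 95% interval -0.37 to 0.44), TMPRSS2 (0.19), RHOU (0.20) and CAMKK2 (0.40) were not called.

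PMEPA1 had the largest difference, with 6.57 and 5.74 (H2O) and 5.80 and 5.60 (DMSO) in LNCaP-abl, against 10.21 and 10.32 (H2O) and 10.22 and 10.18 (DMSO) in LNCaP. The difference was -4.30 (SE 0.15, adjusted p = 3.95e-10), a level 0.0507 times that of LNCaP. Another of its probes, detected on 3 arrays, gave -0.93.

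ELL2 (-1.80, SE 0.12) and PLPP1 (-1.50, SE 0.08, adjusted p = 2.79e-08) were lower in LNCaP-abl too, though one other PLPP1 probe gave 0.03 (adjusted p = 0.858). GNMT had 4.88, 4.61, 4.59 and 4.89 on LNCaP-abl control arrays, none above background, against 7.36, 7.13, 6.87 and 6.74 on those of LNCaP. It was at least 3.30-fold lower in LNCaP-abl (adjusted p = 4.53e-08), HPGD at least 2.79-fold (adjusted p = 9.91e-07) and MAF at least 1.66-fold (adjusted p = 2.01e-05). SPDEF (-0.88), MPHOSPH9 (-0.81), ABCC4 (-0.72), EAF2 (-0.67), ALDH1A3 (-0.65) and FKBP5 (-0.57) were also lower, and the other 5 (CHRNA2, GUCY1A1, HERC3, MED28 and UAP1) lay between -0.66 and -0.36. CHRNA2 was not called without LNCaP-abl H2O replicate 3 (adjusted p = 0.0536), nor HERC3 without any one of 4 arrays (0.0508 to 0.0824).

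Among the genes that were higher in LNCaP-abl controls, ADAMTS1 had 11.44 and 11.41 (H2O) and 11.44 and 11.48 (DMSO) in LNCaP-abl, against 9.48 and 9.52 (H2O) and 9.48 and 9.40 (DMSO) in LNCaP. No array overlapped, and the difference was 1.97 (SE 0.08, adjusted p = 1.96e-09). NDRG1 had 10.70 and 11.04 (H2O) and 10.94 and 11.20 (DMSO) in LNCaP-abl, against 9.28 and 9.60 (H2O) and 9.66 and 10.02 (DMSO) in LNCaP, again without overlap, and differed by 1.33 (SE 0.12, adjusted p = 2.39e-06). PTGER4 (1.40, SE 0.15), LIFR (1.15, SE 0.11) and TPD52 (0.91, SE 0.09) were higher as well. SGK1 (0.73), C1orf116 (0.58), TSC22D3 (0.40), STK39 (0.30) and DBI (0.27) had smaller differences. ORM1 was called higher (adjusted p = 0.000237), with 4 of 4 LNCaP-abl and 1 of 4 LNCaP control arrays above background. For C1orf116 the other probes gave -0.57 and -0.26, both called, so its direction between the lines depended on the probe. STK39 was not called without LNCaP DMSO replicate 3 (adjusted p = 0.0542), and without LNCaP-abl DMSO replicate 3 the difference of TSC22D3 was 0.25.

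**Figure D4:**
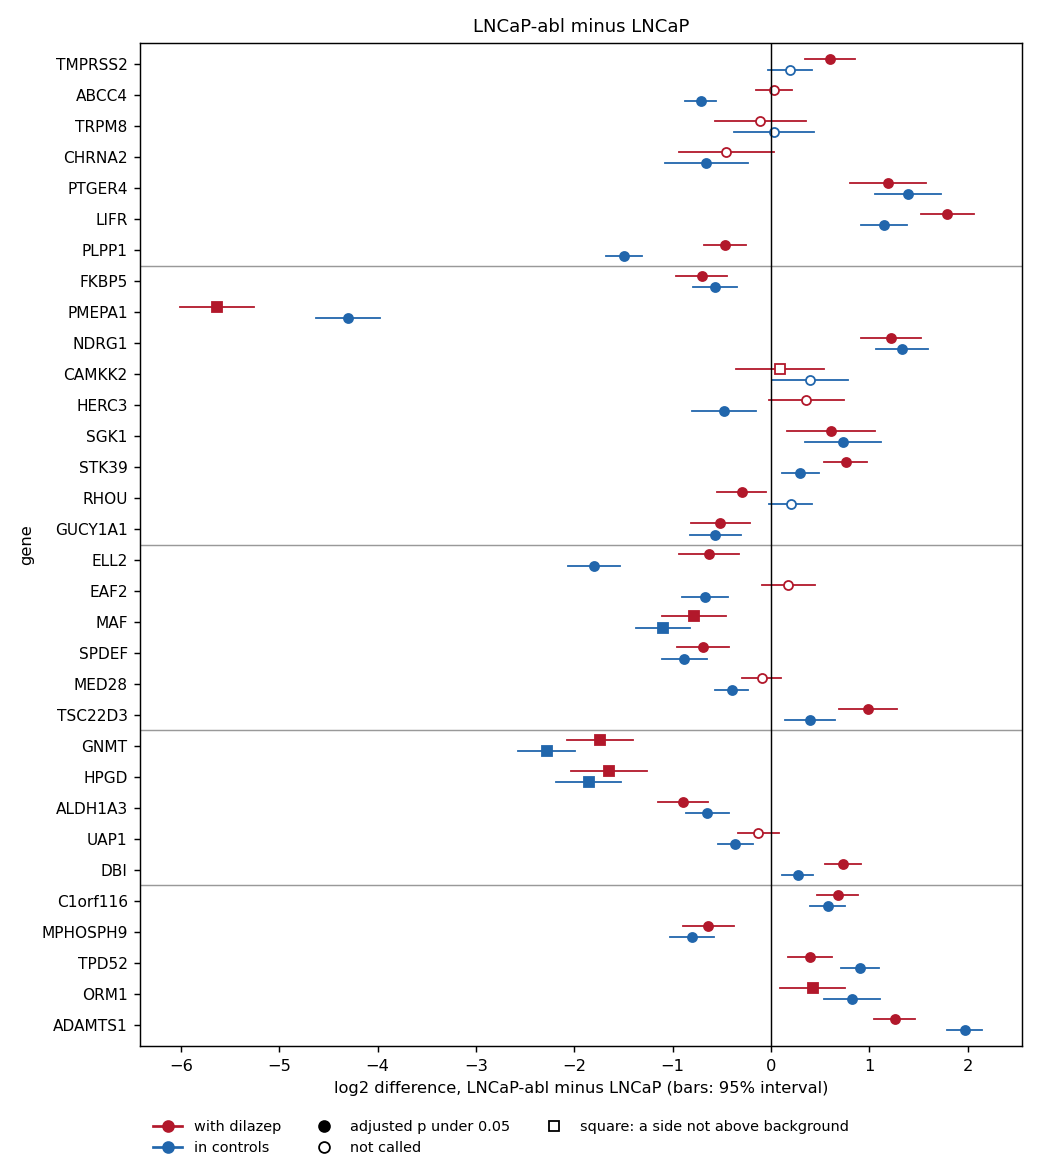
Log2 difference between the lines (LNCaP-abl minus LNCaP, horizontal axis) of 32 androgen-induced genes with dilazep (red) and in controls (blue), with 95% intervals. Filled symbols passed an adjusted p of 0.05, and squares mark genes with a group not above background. PMEPA1 lies at -5.63 with dilazep and -4.30 in controls, while ELL2 and PLPP1 lie closer to 0 with dilazep.

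With dilazep the lines were compared on 3 arrays each. Then 12 genes were lower in LNCaP-abl (37.5%), against 28.8% of all genes, and 12 were higher (37.5%), against 25.8% of all genes, with a median of -0.03 for the 32 and for all genes. With median scaling, the median was -0.20 for the 32 and -0.21 for all genes, and the share of higher calls among all genes was 29.9% in place of 47.2%. The direction in control cells was called again for 22 genes, 11 lower and 11 higher in LNCaP-abl. The share of all genes called in the same direction in both comparisons was not computed, so this count does not set the 32 apart. ABCC4, CHRNA2, EAF2, HERC3, MED28 and UAP1 were lower in LNCaP-abl controls and had no called line difference with dilazep. PMEPA1 was at least 45.0-fold lower in LNCaP-abl with dilazep (adjusted p = 1.71e-10), LIFR was higher by 1.79 (SE 0.12), and TMPRSS2 by 0.60 (SE 0.12, adjusted p = 0.000987). The calls of RHOU (-0.30), SGK1 (0.61) and ORM1 (above background in neither group) were lost without any one of 10, 4 and 3 arrays, at adjusted p between 0.0501 and 0.171.

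Probes of the same gene did not always agree. Beside the brightest ones, 16 probes of 12 members were measured, and in 80 comparisons, those between vehicles left out, 30 gave a different call and 20 the same call at another size. For ABCC4 the second probe was called higher in LNCaP-abl with dilazep (0.36, adjusted p = 0.00685, against 0.03 at the brightest) and gave -0.34 between control lines. That of ALDH1A3 gave a called difference of responses (0.69, adjusted p = 0.00874) and no called line difference with dilazep (-0.04, against -0.89 at the brightest). Both other probes of C1orf116 gave called differences of responses (1.73 and 0.94, against 0.10), and one gave a line difference of 1.16 with dilazep, against 0.68 at the brightest.

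The second probe of CAMKK2, detected on 4 arrays, was called in LNCaP-abl with dilazep (-0.92, adjusted p = 0.00649) and between control lines (0.57, adjusted p = 0.0493). TPD52 was called higher with dilazep in LNCaP-abl at its second probe (0.26, adjusted p = 0.0429) and lay 0.81 higher in LNCaP-abl than in LNCaP with dilazep, against 0.40 at the brightest. For GUCY1A1 the line differences were not called at the second probe (adjusted p = 0.0665 in controls and 0.0651 with dilazep). Neither other PLPP1 probe was called between the lines with dilazep (0.28 and -0.05), and one gave -0.59 with dilazep in LNCaP-abl. One SGK1 probe gave no called line difference with dilazep (-0.14, adjusted p = 0.52), and the other gave 1.14 between control lines. Larger values with the same call came from DBI (0.41 with dilazep in LNCaP-abl, 0.77 for the difference of responses, 0.47 and 1.24 between lines in controls and with dilazep) and TSC22D3 (1.51 for the difference of responses and 1.89 between lines with dilazep). For PMEPA1 the probe detected on 3 arrays gave -0.56 between lines with dilazep.

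Other genes of the pathway gave a mixed picture. Among all genes, 23.3% fell and 27.2% rose with dilazep in LNCaP-abl, and 19.7% fell and 24.2% rose in LNCaP. Of 20 further androgen-induced genes, kallikreins included, 16 were measured, and with dilazep 8 fell and 4 rose in LNCaP-abl and 8 fell and 3 rose in LNCaP. KLK2 fell by 2.39 in LNCaP-abl (SE 0.17, adjusted p = 2.9e-07) and changed by -0.06 in LNCaP, and KLK3, which encodes prostate-specific antigen, was at least 2.14-fold lower in LNCaP-abl (adjusted p = 9.07e-06) and changed by -0.34 in LNCaP (adjusted p = 0.133). The condensin subunit gene NCAPD3 (-1.99 and -1.02), the membrane-bound factor gene CREB3L4 (-1.20 and -1.41), CENPN (-1.32 and -0.71) and AKAP12 (-1.63 and -1.22) fell in LNCaP-abl and in LNCaP. Of 20 androgen receptor partners and coregulators, 14 were measured, and 6 fell and 3 rose in LNCaP-abl, against 1 and 2 in LNCaP. GATA2 fell by 0.93 in LNCaP-abl (SE 0.10, adjusted p = 9.9e-06) and changed by 0.06 in LNCaP (adjusted p = 0.662), and the difference was called (-0.99, adjusted p = 0.000324). HOXB13 (-1.15), the histone demethylase gene KDM1A (-1.03) and the receptor chaperone gene FKBP4 (-0.83) fell in LNCaP-abl with no call in LNCaP, and FOXA1 rose by 0.31 in LNCaP-abl. The glucocorticoid receptor gene NR3C1 had no named probe that was kept and was not analysed here. Of 8 measured glucocorticoid targets outside the 35, 2 fell and 4 rose in LNCaP-abl and 2 fell and 2 rose in LNCaP, CEBPD falling in both (-1.87 and -1.26).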

How the data were processed

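The 35 genes and all gene lists were chosen with earlier results of these data known. Per the file headers, the authors deposited for each array the linear intensity of every probe, not background-corrected as far as the values show, with its detection p-value. Log2 values of 22912 probes, which the authors deposited as well and for which the submitters' processing notes name lumi, served as an alternative only, and their exact transform is not given in the sources used. The 14 arrays were compared in 6 groups, and their number limits the precision.

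Of 47323 distinct probes, 24894 with a detection p-value under 0.05 on at least 2 arrays were kept, after neqc in limma 3.58.1 under R 4.3.3 (normexp background correction from detection p-values, offset 16, quantile normalization, log2). Names came from the platform annotation, with symbols updated through Entrez identifiers, and 16501 probes had 1 symbol. A model with 1 mean per group (lmFit, eBayes, two-sided) gave 6 comparisons, namely dilazep in each line, the difference of these responses, the lines in controls and with dilazep, and DMSO against H2O. Only the fit was tested on simulated gene values, which leaves the normalization, the detection filter and the choice of probes untested. "At least N-fold" sets the detected group's mean against the other group's mean, taking per array the higher of the lowest detected level and the gene's own. All 32 measured members are named, with up to 4 genes of each other list by smallest p and a fixed set of receptor-related genes. Replicate numbers were not used to pair the arrays in the main fit (8 same-numbered pairs, correlations of deviations between -0.177 and 0.0544). In groups of 2 arrays the deviations mirror each other, so these correlations do not settle whether same-numbered arrays were paired. Plots were drawn with matplotlib 3.10.9.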

Additional observations from a re-analysis of the deposited data

Results flagged for a closer look

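The response to dilazep differed between the lines for 13 of the 32 genes by a test of the difference itself (limma, change in LNCaP-abl minus change in LNCaP, adjusted p under 0.05 over all genes). Of the 32, 28.1% were higher, against 15.9% of all genes, and 12.5% lower, against 17.9%. Only 5 of the 13 calls held under every alternative, and 8 were lost under at least 1. With median scaling HERC3, LIFR, STK39, TSC22D3 and DBI were not called. Positive differences mean a smaller fall, a larger rise, or a rise in LNCaP-abl beside a fall in LNCaP. They were found for ELL2 (1.18), PLPP1 (1.03), EAF2 (0.84), HERC3 (0.84), ABCC4 (0.75), LIFR (0.64), TSC22D3 (0.59), STK39 (0.46) and DBI (0.46). Negative differences were found for PMEPA1 (fitted at -1.33, and -1.19 with its LNCaP-abl dilazep level, not above background, at the bound), ADAMTS1 (-0.71), TPD52 (-0.51) and RHOU (-0.50). PMEPA1, ADAMTS1 and DBI were called in opposite directions in the lines. Groups of 2 or 3 arrays are too small for a check for outlying arrays.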

How the results depend on the processing

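With 25, 24 or 23 alternatives per comparison, members called with dilazep numbered 11 to 16 lower and 4 to 5 higher in LNCaP-abl, and 13 to 18 lower and 3 to 5 higher in LNCaP. Calls held under every alternative for 13 of 19 members in LNCaP-abl, 15 of 22 in LNCaP, 5 of 13 for the difference of the responses, 19 of 28 between control lines and 19 of 24 between lines with dilazep. The members' median change with dilazep was -0.32 (median scaling) and -0.19 (DMSO controls alone) in LNCaP-abl. In LNCaP it was -0.20 without background correction, -0.13 in the authors' values, -0.33 with the stricter detection filter or H2O controls alone, and -0.35 with all probes averaged, where 3 were higher. The median difference of the responses was -0.043 with median scaling (4 higher), 0.10 without background correction and 0.094 in the authors' values, and 2 were lower with DMSO controls alone. Between control lines it was -0.27 without background correction, -0.17 in the authors' values and -0.33 with DMSO controls alone. Median scaling gave -0.20 between lines with dilazep and -0.068 between vehicles. Leaving out each array gave medians of -0.18 to -0.12 in LNCaP-abl, -0.38 to -0.28 in LNCaP, 0.12 to 0.22 for the difference and -0.058 to 0.12 between lines with dilazep. With probes averaged, ALDH1A3 turned to -0.36 with dilazep in LNCaP (adjusted p = 0.0034) and C1orf116 to -0.083 between control lines (adjusted p = 0.417). These 2 turns follow their other probes, while the cause of the other shifts was not tested. With replicate number as a block the medians were -0.34 in LNCaP, 0.15 for the difference and 0.045 between lines with dilazep, and 13 members were lower in each line. Whether the numbers mark a shared source is not known. With 3 dilazep and 4 control arrays per line, small changes (ABCC4, EAF2, DBI and CAMKK2 in LNCaP-abl, MAF and UAP1 in LNCaP) were near the limit, and probes near background carry bounds only.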

Other observations

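Of 18 genes of steroid synthesis and conversion, which make or change the ligands of the androgen receptor, 6 were measured. With dilazep, 2 rose and 1 fell in LNCaP-abl, where 27.2% of all genes rose and 23.3% fell, and none rose and 1 fell in LNCaP, where 24.2% rose and 19.7% fell, so the counts say nothing particular about the group. SRD5A1, which converts testosterone to dihydrotestosterone, rose by 1.06 in LNCaP-abl (SE 0.14, limma adjusted p = 3.77e-05) and changed by 0.34 in LNCaP (adjusted p = 0.0628). HSD17B4 rose by 0.56 in LNCaP-abl (adjusted p = 0.000252) and changed by -0.14 in LNCaP (adjusted p = 0.253). HSD17B6 fell by 0.83 in LNCaP-abl (adjusted p = 0.00166), and was not above background with dilazep in LNCaP, where it was at least 2.04-fold lower (adjusted p = 9.91e-05).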
